A study of Mus musculus with 6 samples.

Results

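Myeloid cells arise from bone marrow progenitors under the control of a small set of DNA-binding proteins, and 10 of their genes are described here: Spi1, Cebpa, Cebpb, Cebpe, Gfi1, Gfi1b, Irf8, Runx1, Myb and Gata2. They were taken by name from the gene table, which holds 13932 genes, and from the junction table, where 107 of 151811 splice junctions belong to them. All 10 have a row in the gene table. Spi1, which encodes PU.1, is listed there under its older symbol Sfpi1. Cebpa and Cebpb have no junction row, Cebpe has 1, and Myb has the most, with 41.

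RNA came from common myeloid progenitors sorted as lineage-negative, c-Kit+, Sca-1-, CD34+ and Fcgamma- cells from mice transplanted with transgenic marrow. The marrow carried the rtTA transactivator with an inducible U2AF1 transgene, either U2AF1(S34F) or U2AF1(WT), so both groups carried rtTA and a transgene. Mice of both genotypes received doxycycline chow for 5 days, more than 6 weeks after transplantation. There were 3 libraries per genotype, each from pooled marrow of 4 to 5 mice. The genotype of each library comes from its title, since the genotype entry of the labels reads S34F for all 6. The age and strain of the mice, and the cells of host origin left in the marrow, are not in the labels.

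PU.1 and C/EBP alpha open the granulocyte and monocyte programmes. IRF8 is needed for monocytes and dendritic cells, and GFI1 and C/EBP epsilon for granulocyte maturation. GATA2, RUNX1 and MYB act earlier, in stem and progenitor cells, and GFI1B acts in erythroid cells and megakaryocytes. U2AF1, the smaller partner in the U2AF splicing complex, recognises the AG with which introns end. The S34F substitution, found in myelodysplastic syndromes, is known to alter which base it tolerates just before that AG. The comparison asks whether the level or the splicing of these genes differed after short induction of the mutant.

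The libraries held 46827909 to 94562984 gene counts and 41003848 to 82730420 junction counts. WT replicate 1 stood apart from its group. Its log2 levels over all genes correlated best with S34F replicate 3 (Pearson r = 0.985) and less with WT replicates 2 and 3 (0.974 and 0.975). Replicate 1 of both genotypes also differed from the others in the Y-linked gene Ddx3y, with 5714 and 5580 counts against 0 in each other library. Xist was at 1 and 5 counts in replicate 1 of S34F and WT, against 67264 to 128694 in the other libraries. By these genes, the cells of replicate 1 were male and those of the other libraries female. The part of sex in the differences between libraries was not tested. Where leaving out WT replicate 1 changed a call or moved a main value, the value without it is given beside the result. That library was singled out from these same data. Without it edgeR called 8.42% of all genes, beside 0% with all 6 libraries, so calls made without it depend on that choice. With it left out, Ddx3y counts remain in S34F only. The sort markers Kit (92.4 to 209 CPM) and Cd34 (695 to 904 CPM) were high in every library, and Ly6a, which encodes Sca-1, was at 1.08 to 1.84 CPM, where CPM stands for read counts divided by the TMM-scaled library size. U2af1 counts do not check the labels, because reads of the transgene and the endogenous gene were not separated here.

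No gene of the 10 differed between the genotypes at an adjusted p under 0.05. By edgeR 0 of 10 were called, where the background over all genes was 0% of 13905, and DESeq2 called 0 of 10, where it called 0.689% of all genes. At an unadjusted p under 0.05, 1 of 10 passed by edgeR, which is Irf8, beside 9.10% of all genes, and 1 of 10 by DESeq2, beside 10.3%. Of the 10 fitted log2 fold changes, 4 were above 0 and 6 below. Their median was -0.07, beside -0.0052 over all genes. In the authors' deposited table the adjusted p of the 10 genes ran from 0.353 for Irf8 to 0.988 for Myb.

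**Figure D1:**
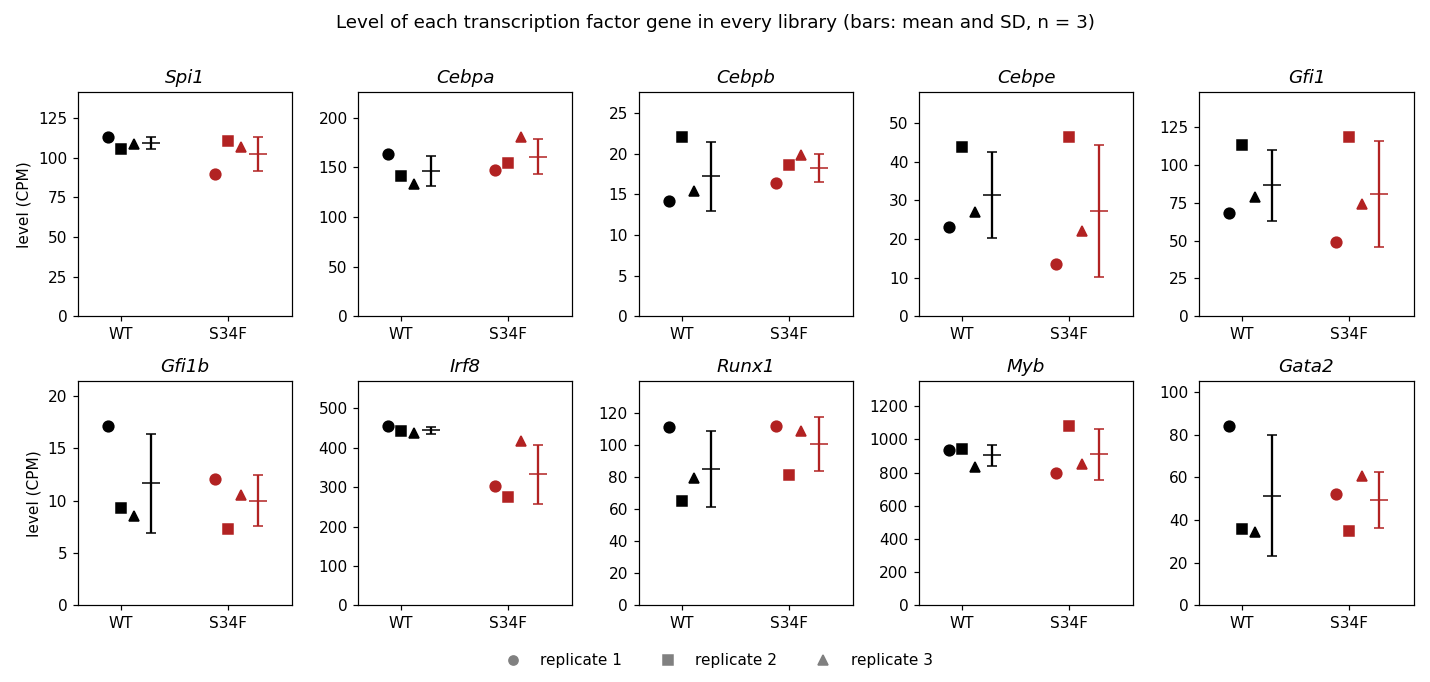
Level of each of the 10 genes in CPM (linear axis from 0) in the 3 WT and 3 S34F libraries, with the mean and SD of each genotype beside the points. The genotypes overlap for every gene except Irf8, whose 3 S34F libraries (276 to 418 CPM) lie below the 3 WT libraries (438 to 455 CPM).

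Among the factors of the granulocyte and monocyte programmes, Irf8 had the lowest fitted change. Irf8 encodes an interferon regulatory factor and lies at chr8:123260258-123280594 on the plus strand (build mm9, as for all positions here). Its level was 303, 276 and 418 CPM in S34F replicates 1 to 3 and 455, 441 and 438 CPM in WT replicates 1 to 3. All 3 S34F libraries were below all 3 WT libraries, but S34F replicate 3 lay close to the WT range. The means were 332 ± 75.4 and 445 ± 9.07 CPM (SD, n = 3; exact permutation p = 0.1, two-sided, the smallest that 3 against 3 allows). The log2 fold change was -0.42 with a standard error of 0.16 and an unadjusted 95% interval of -0.79 to -0.055 (edgeR adjusted p = 0.538). DESeq2 gave an adjusted p of 0.341. Ranges that do not overlap, with S34F lower, were seen for 8.47% of all genes, and for 15.6% in either direction. None of the 10 genes had ranges that did not overlap with S34F higher, beside 7.16% of all genes.

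The lower Irf8 values stood beside lower values of some, but not all, genes of a list of monocyte and dendritic cell markers, lineages in which it is known to act. The marker and factor lists here were chosen with earlier results of these data known, so their counts are not independent of these data. Of the 12 genes of the monocyte and dendritic cell list, 9 had a fitted change below 0, with a median of -0.32. The 3 above 0 were Ccr2 (log2 fold change 1.07), Cd68 (0.40) and Csf1r (0.03). Ly6c2 was at -0.03, and these genes all had ranges that overlapped. DESeq2, which called 0.689% of all genes, called 3 of the 12 lower (H2-Aa, H2-Ab1 and Cst3). None was called by edgeR, though 6 of 12 had an unadjusted p below 0.05, beside 9.10% of all genes. Without WT replicate 1, where edgeR called 8.42% of all genes, it called 4 of the 12. H2-Aa, H2-Ab1 and Cst3 were lower (adjusted p = 0.0121, 0.0109 and 0.0176) and Cd68 was higher (log2 fold change 0.85, adjusted p = 0.0245). H2-Aa, a class II antigen presentation gene, was at 18.5, 7.49 and 15.4 CPM in S34F and 113, 63.0 and 94.5 CPM in WT (log2 fold change -2.71, edgeR adjusted p = 0.183). H2-Ab1, its partner chain, was at 27.6, 21.3 and 24.9 CPM against 86.3, 59.1 and 101 CPM. No marker of this list was at 0 in any library. The summed level of the list did not follow Irf8: it ran from 1246 to 2464 CPM in S34F and from 1481 to 2067 CPM in WT, with Ccr2 alone at 199 to 1445 CPM. In these bulk samples, fewer cells of a type and less RNA per cell cannot be told apart, and the part of such cells in the Irf8 values was not tested.

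Spi1 lies at chr2:90922547-90955913 on the plus strand and encodes the Ets factor PU.1. Its level was 89.9, 110 and 107 CPM in S34F and 113, 106 and 109 CPM in WT. Only S34F replicate 1 lay outside the narrow band of the others. The log2 fold change was -0.09 with a 95% interval of -0.33 to 0.15 (edgeR adjusted p = 0.751). Among the 10 genes, Spi1 also varied least across the 6 libraries, with a highest level 1.26 times the lowest.

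Cebpa, at chr7:35904312-35906945 on the plus strand, encodes C/EBP alpha, which is required for the granulocyte and monocyte lineages. It was at 147, 154 and 180 CPM in S34F and 163, 141 and 133 CPM in WT. The ranges overlapped, and the log2 fold change was 0.14 with a 95% interval of -0.14 to 0.42 (edgeR adjusted p = 0.694). Cebpb, at chr2:167514415-167515918 on the plus strand, encodes C/EBP beta, which drives granulocyte production under demand. It was at 16.4, 18.6 and 19.8 CPM in S34F and 14.2, 22.0 and 15.4 CPM in WT. Here the S34F libraries lay inside the WT range, and the log2 fold change was 0.09, with an interval of -0.35 to 0.52 (edgeR adjusted p = 0.879), and -0.033 without WT replicate 1. The exons of Cebpb share 312 bases with Tmem189 on the other strand, and no source used here states whether the counting used strand.

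The granulocyte factors Gfi1 and Cebpe varied more within a genotype than between the genotypes. Gfi1, at chr5:108145674-108155056 on the minus strand, encodes a zinc finger repressor needed for neutrophils. It was at 49.2, 118 and 74.0 CPM in S34F and 68.1, 113 and 78.5 CPM in WT. Cebpe, at chr14:55329200-55331011 on the minus strand, encodes C/EBP epsilon, which acts in late granulocyte maturation. It was at 13.5, 46.4 and 22.0 CPM in S34F and 23.1, 44.0 and 27.1 CPM in WT. Replicate 2 was highest and replicate 1 lowest in both genotypes for both genes.

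Fitted changes of this pair were correspondingly wide. For Gfi1 the log2 fold change was -0.10 with an interval of -0.84 to 0.64 (edgeR adjusted p = 0.918). Cebpe gave -0.20 with an interval of -1.22 to 0.82 (edgeR adjusted p = 0.879). The gene Fcgr3, which encodes the Fc gamma receptor III that the sort selects against, varied with them. It was at 33.4, 78.1 and 61.5 CPM in S34F and 38.8, 111 and 61.2 CPM in WT, again highest in replicate 2 and lowest in replicate 1 of both genotypes. Of the 12 neutrophil markers, 12 were highest in replicate 2 in S34F and 7 in WT. Their summed level was 7217, 11439 and 9529 CPM in S34F and 10259, 7499 and 7166 CPM in WT, where most of the sum in replicate 1 was Mpo, at 6538 CPM. The part of sorted cell composition in these values was not tested.

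Of the factors of stem cells and early progenitors, Myb was by far the most abundant. Myb, at chr10:20844736-20880790 on the minus strand, sustains proliferating progenitors. Its level was 796, 1081 and 852 CPM in S34F and 934, 945 and 831 CPM in WT. The S34F values spanned the WT values, and the log2 fold change was 0.01 with an interval of -0.31 to 0.33 (edgeR adjusted p = 0.985). Its exons share 491 bases with the antisense non-coding gene Gm16786.

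Runx1 is the DNA-binding subunit of core binding factor and lies at chr16:92601712-92826311 on the minus strand. Its level was 112, 81.5 and 108 CPM in S34F and 111, 64.7 and 79.4 CPM in WT. WT replicate 1 was as high as the S34F libraries, and the ranges overlapped. The log2 fold change was 0.24 with an interval of -0.25 to 0.73 (edgeR adjusted p = 0.694). Without WT replicate 1 it was 0.48, with an unadjusted edgeR p of 0.0204 and an adjusted p of 0.118. In that fit 8.42% of all 13921 genes were called, and 26.2% had an unadjusted p under 0.05, beside 0 and 1 of the 10 genes.

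Gata2, at chr6:88143885-88157024 on the plus strand, is a zinc finger factor of stem cells, early progenitors and mast cells. It was at 52.4, 35.1 and 60.6 CPM in S34F and 84.1, 35.7 and 34.2 CPM in WT. WT replicate 1 was the highest library, while WT replicates 2 and 3 were, with S34F replicate 2, the lowest. The log2 fold change was -0.05 with an interval of -0.91 to 0.80 (edgeR adjusted p = 0.965), and without WT replicate 1 its sign turned, to 0.50 (edgeR adjusted p = 0.196).

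Gfi1b, at chr2:28464970-28477502 on the minus strand, encodes the relative of GFI1 that acts in erythroid cells and megakaryocytes. It had the lowest level of the 10 genes, with 12.1, 7.29 and 10.6 CPM in S34F and 17.1, 9.29 and 8.56 CPM in WT. As with Gata2, WT replicate 1 was highest. The log2 fold change was -0.22 with an interval of -0.93 to 0.50 (edgeR adjusted p = 0.802), and 0.16 without WT replicate 1.

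Kit, the receptor gene used in the sort, differed between libraries beside Runx1, Gata2 and Gfi1b. It was at 192, 149 and 175 CPM in S34F and 209, 92.4 and 125 CPM in WT, highest in WT replicate 1 and lowest in WT replicate 2. Of the 10 measured erythroid markers, 9 had a fitted change below 0, with a median of -0.70, but edgeR and DESeq2 called 0. An unadjusted p under 0.05 by edgeR was seen for 4 of the 10, beside 9.10% of all genes. Their summed level, most of it Tfrc, ran from 279 to 332 CPM in S34F and from 271 to 295 CPM in WT, so the sum and the median differ in sign. The part of erythroid cells in the Gata2 and Gfi1b values was not tested.

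**Figure D2:**
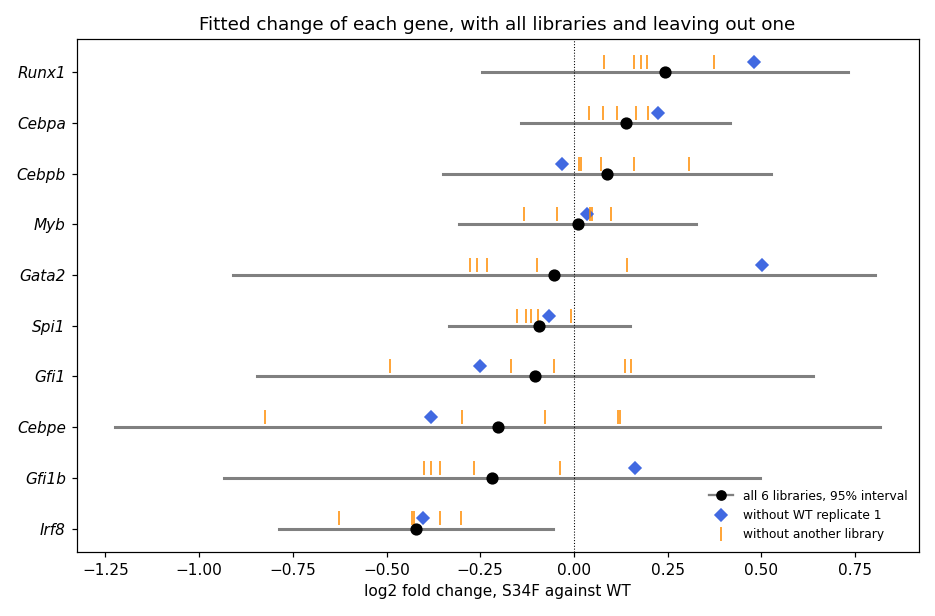
Fitted log2 fold change of each gene, S34F against WT, from all 6 libraries (black points, with unadjusted 95% intervals as grey lines) and after leaving out 1 library (blue diamonds without WT replicate 1, orange ticks without another). Leaving out WT replicate 1 moves Gata2 from -0.05 to 0.50 and Runx1 from 0.24 to 0.48, while Irf8 stays below 0 in every such fit (-0.63 to -0.30).

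**Figure D3:**
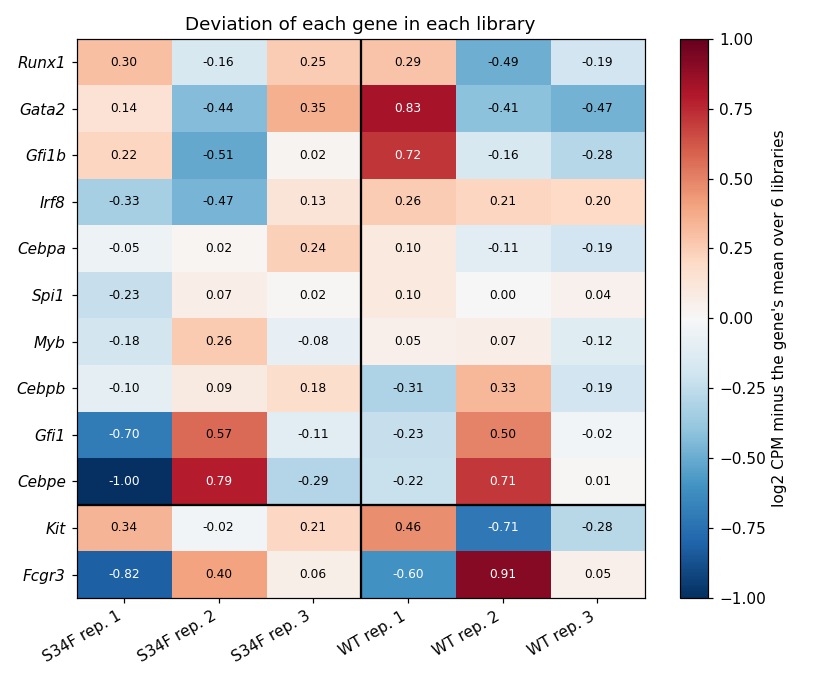
Log2 CPM of the 10 genes, and of Kit and Fcgr3 below the line, minus the mean of each gene over the 6 libraries (red above, blue below). Gfi1, Cebpe and Fcgr3 are above their means in replicate 2 of both genotypes, and Gata2 and Gfi1b are highest in WT replicate 1.

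Compared per length of exon, as CPM per kilobase (RPKM computed here from the counts), the genes fell in a wide order. The length was that of all annotated exons of a gene merged, not of the forms in use. The order of genes with close values depends on that choice. The median over the 6 libraries was 237 for Myb, 60.6 for Irf8, 57.2 for Cebpa and 39.9 for Spi1. Below these came Gfi1 at 23.5, Cebpe at 20.3, Gata2 at 13.1, Runx1 at 12.2, Cebpb at 11.6 and Gfi1b at 5.43. Of the 9 neighbouring pairs, only Myb and Irf8, Cebpa and Spi1, and Cebpb and Gfi1b had ranges that did not overlap. Spi1 was nevertheless above Gfi1, and Gata2 above Runx1, in each of the 6 libraries. The other 4 pairs changed order between libraries.

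No partner protein of these factors was called by edgeR with all 6 libraries. Of 24 listed partners, 23 were measured, 13 with a fitted change above 0 and 10 below, with a median of 0.01. By edgeR and DESeq2 0 were called, and 2 had an unadjusted p under 0.05 by edgeR, for which the share over all genes was 9.10%. These were Irf4, the closest relative of Irf8, at 0.440, 0.669 and 0.693 CPM in S34F and 0.979, 1.58 and 1.40 CPM in WT (log2 fold change -1.14, edgeR adjusted p = 0.538), and Gata1, the erythroid partner of FOG1, at 16.5, 12.4 and 17.9 against 26.6, 18.1 and 23.3 CPM (-0.54, adjusted p = 0.538). Both had ranges that did not overlap, as had Ldb1 (log2 fold change -0.17). These were 3 of the 23 partners, beside 15.6% of all genes. Without WT replicate 1, where edgeR called 8.42% of all genes, it called 4 of the 23, all higher in S34F. They were Cbfa2t2, a corepressor of the ETO family (log2 fold change 0.82, adjusted p = 0.0111), Runx3, a relative of Runx1 (0.87, 0.0114), Rcor1, a corepressor that binds GFI1 and GFI1B complexes (0.44, 0.0297), and the coactivator Crebbp (0.60, 0.0397). Of 27 other lineage factors, a list also chosen with earlier results of these data known, 26 were measured. Of these, 9 were above 0 and 17 below, with a median of -0.15. By edgeR 0 were called and 8 of 26 had an unadjusted p under 0.05, beside 9.10% of all genes. Ranges did not overlap for 7 of the 26, beside 15.6% of all genes. DESeq2, which called 0.689% of all genes, called 3, all lower in S34F: Zbtb46 and Batf3, factors of dendritic cells, and Id2, which acts in dendritic and innate lymphoid cells. Zbtb46 was at 0.651, 0.388 and 0.931 CPM in S34F and 5.06, 2.69 and 2.86 CPM in WT (log2 fold change -2.42, DESeq2 adjusted p = 1.40e-05, edgeR adjusted p = 0.285). It was the 1 gene of this list that edgeR called without WT replicate 1 (-2.07, adjusted p = 0.0240).

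Markers of other cells that the sort could hold were measured beside the 10 genes. Of 12 neutrophil markers 8 were above 0 and 4 below, with a median of 0.13 and 0 called by either tool; Lcn2 and Ngp had the lowest p, with log2 fold changes of 0.48 and 0.50 (edgeR adjusted p = 0.552 and 0.562). Mpo, the most abundant of them, had a log2 fold change of 0.30 (edgeR adjusted p = 0.717). Without WT replicate 1, where edgeR called 8.42% of all genes, Mpo was at 0.72 and was called (edgeR adjusted p = 0.0314). Megakaryocyte markers had a median of -0.16 with 4 of 10 above 0, led by Itga2b (-0.58, edgeR adjusted p = 0.538) and Gata1; without WT replicate 1, edgeR called Cd9 higher (1.76, adjusted p = 0.0314). The medians of the mast cell and basophil list and of the stem cell list were -0.08 and -0.13, with 0 of 7 and 0 of 9 genes called by either tool. Among 8 lymphoid genes the median was 0.20. DESeq2, which called 0.689% of all genes, called Klrk1, a receptor of natural killer cells, lower in S34F. Klrk1 was at 1.76, 1.14 and 1.92 against 6.44, 7.61 and 6.04 CPM (edgeR adjusted p = 0.183, and 0.0113 without WT replicate 1). The 5 sort markers had a median of -0.18 and 0 called.

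Splicing was read from junction counts in 4 tests over the whole table. Acceptor and donor choice compare introns that share a donor or an acceptor, the cassette test sets reads that include an exon against reads that skip it, and the share test sets a junction against the other junctions of its gene. No event in the member genes was called in any of them by edgeR, DESeq2 or limma. For acceptors edgeR called 0 of 31, beside 0% of 29709 over all genes, and for donors 0 of 33, beside 0.00997% of 30084. It called 0 of 7 cassette exons, beside 0.0275% of 7260, and 0 of 58 junction shares, beside 0.00434% of 115076. At an unadjusted p under 0.05 the counts were 0 of 31 acceptors, 0 of 33 donors, 1 of 7 cassette exons and 4 of 58 shares, where the background was 7.50%, 6.41%, 10.8% and 5.78%. DESeq2 called 0 events of the 4 kinds, where it called 1.27, 0.811, 1.96 and 0.0987% of all acceptors, donors, cassette exons and shares, and limma called 0, where it called 0.199, 0.219, 0 and 0.000869%. At an unadjusted p under 0.05, DESeq2 had 6 of 31 acceptors (background 11.7%), 6 of 33 donors (9.43%), 1 of 6 cassette exons (13.2%) and 4 of 51 shares (4.82%). Limma had 1 of 31 (8.67%), 4 of 33 (7.33%), 1 of 7 (10.3%) and 2 of 58 (5.44%).

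Without WT replicate 1, edgeR again called 0 member events of each kind, where the background was 0, 0, 0 and 0.0148%. At an unadjusted p under 0.05 it then had 6 of 31 acceptors (background 8.72%), 4 of 33 donors (7.80%), 2 of 7 cassette exons (10.6%) and 5 of 58 shares (8.73%). Acceptors that share a donor, and an exon's junctions, share reads and are not independent. With all libraries, the shares of the genotypes did not overlap for 1 of 31 acceptors (background 17.0%), 2 of 33 donors (14.8%), 1 of 7 cassette exons (19.7%) and 8 of 58 junction shares (11.3%). In the authors' deposited table the lowest adjusted p of any junction of these genes was 0.293, in Myb.

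Acceptors of alternative forms in Runx1, Myb and Gfi1b are shown first, because U2AF1 contacts the end of the intron. Each run gives 20 bases of intron and 3 of exon, read from the mm9 genome on the strand of the gene, with the last 3 intron bases in capitals.
Runx1, acceptor of the 192 nt exon, chr16, 92644590: cctcccggtccctacacTAGgac
Runx1, acceptor of the exon after it, chr16, 92614005: acatccttgtctccctgCAGatg
Runx1, unannotated acceptor from the distal donor, chr16, 92785313: tctgcttcctttgatgtTAGctg
Myb, acceptor of the 357 nt exon, chr10, 20865131: tgcctcccacgttgtttCAGgat
Myb, acceptor of the exon after it, chr10, 20862898: tttctttcttccatgttTAGttc
Gfi1b, upstream acceptor, chr2, 28467203: cggagtgtcctctttctCAGggc
Gfi1b, downstream acceptor, chr2, 28467104: ggcctcgtttcctccggCAGgag
The Runx1 exon and the unannotated Runx1 acceptor have a T before the AG and the exon after the cassette exon a C, and in Myb the order is the reverse, while both Gfi1b acceptors have a C. Over the 71 different acceptors of the member genes, 66.2% had C at this place, 29.6% T and 4.23% A. Over all 129001 acceptors these shares were 62.7%, 30.6% and 6.32%.

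In Runx1 the coding cassette exon chr16:92644399-92644590 had lower inclusion in all 3 S34F libraries than in the 3 WT libraries. It is 192 nt long, a multiple of 3, so that skipping keeps the reading frame. Inclusion was 66.7, 65.8 and 60.7% in S34F and 70.5, 78.7 and 83.9% in WT. The groups did not overlap, as for 19.7% of all cassette exons, and WT replicate 1 lay nearest to S34F. The means were 64.4% ± 3.22 and 77.7% ± 6.76 (SD, n = 3; exact permutation p = 0.1, two-sided), a difference of -13.3 points (edgeR adjusted p = 0.478), and of -16.9 points without WT replicate 1 (adjusted p = 0.425). Each library had 176 to 520 reads for this event. The widest 95% Wilson half-width was 5.74 points, for the summed reads of both inclusion junctions as a share of all these reads. It covers counting error only, and it understates that error for the inclusion percentages, which average the inclusion junctions. The donor test reads the same choice from the next exon. There, the skipping donor supplied 41.9, 37.9 and 41.3% in S34F and 30.8, 25.9 and 20% in WT (edgeR adjusted p = 0.786).

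Runx1 is known to start from a distal and a proximal promoter. From the distal donor at 92825834, most reads joined the annotated acceptor at 92695982, with 77.8, 74.8 and 87.8% in S34F and 84.2, 63.3 and 54.2% in WT. The difference was 12.9 points, and 21.4 without WT replicate 1 (edgeR adjusted p = 0.584). An unannotated acceptor at 92785313 took 14.4, 6.99 and 4.49% in S34F and 11.5, 25.3 and 33.6% in WT. WT replicates 2 and 3 were highest and WT replicate 1 lay among the S34F libraries. The difference was -14.8 points (edgeR adjusted p = 0.683), and -20.8 points without WT replicate 1 (adjusted p = 0.490). Its share of all Runx1 junction reads was 1.78, 1.04 and 0.461% against 1.55, 3.74 and 2.93% (edgeR adjusted p = 0.857). A junction from the same donor to 92689377, which passes over the exon between, took 4.64, 6.29 and 3.21% in S34F and 2.15, 0 and 0% in WT (edgeR adjusted p = 0.678, and 0.344 without WT replicate 1). At 150 and 131 reads the zeros allow up to 2.00 and 2.29%. Such limits for zeros, here and below, cover counting error only and not a junction missed in a library. The acceptor at 92825225 took 1.55, 6.99 and 4.49% in S34F and 0, 10 and 12.2% in WT, again with WT replicate 1 apart from its group. The difference was -3.06 points (edgeR adjusted p = 0.980), and -6.76 points without that library (adjusted p = 0.646). From the 192 nt exon, a junction to 92606369 took 7, 8.57 and 0% in S34F and 0, 7.69 and 7.69% in WT (edgeR adjusted p = 0.997), and the difference turned from 0.0623 to -2.50 points without WT replicate 1.

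In Myb the coding exon chr10:20864775-20865131, of 357 nt and also a multiple of 3, was a minor form. Inclusion was 9.54, 6.66 and 9.32% in S34F and 8.18, 3.69 and 2.70% in WT, from 3038 to 5532 reads per library. WT replicate 1 lay within the S34F range and WT replicates 2 and 3 below it. The difference was 3.65 points (edgeR adjusted p = 0.436), and 5.31 points without WT replicate 1 (edgeR adjusted p = 0.184). Reads from this exon to an unannotated acceptor, described next, were left out of the inclusion. They numbered 143, 190 and 138 in S34F and 181, 0 and 1 in WT. Inclusion is therefore understated in the S34F libraries and in WT replicate 1.

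Downstream of that exon, reads were split between the annotated acceptor and an unannotated one 17 nt further on. The window below starts before the annotated acceptor, with the 3 bases before each exon start in capitals.
Myb, chr10, exon starts 20862898 and 20862881: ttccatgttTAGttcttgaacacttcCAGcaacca
The unannotated acceptor took 31.7, 41.5 and 34.5% of the reads in S34F and 34.9, 0 and 0.820% in WT, of 122 to 518 reads. WT replicate 1 was like the S34F libraries, and WT replicates 2 and 3 had almost no such reads, the 0 of 150 allowing up to 2.00%. The edgeR adjusted p was 0.700 with all libraries and 0.305 without WT replicate 1. From the major upstream donor at 20865992 the same acceptor took only 2 to 23 reads per library. Another Myb junction, between 20872242 and 20870346, held 6.18, 6.23 and 6.21% of the gene's junction reads in S34F and 6.56, 6.79 and 7.68% in WT (edgeR adjusted p = 0.858).

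**Figure D4:**
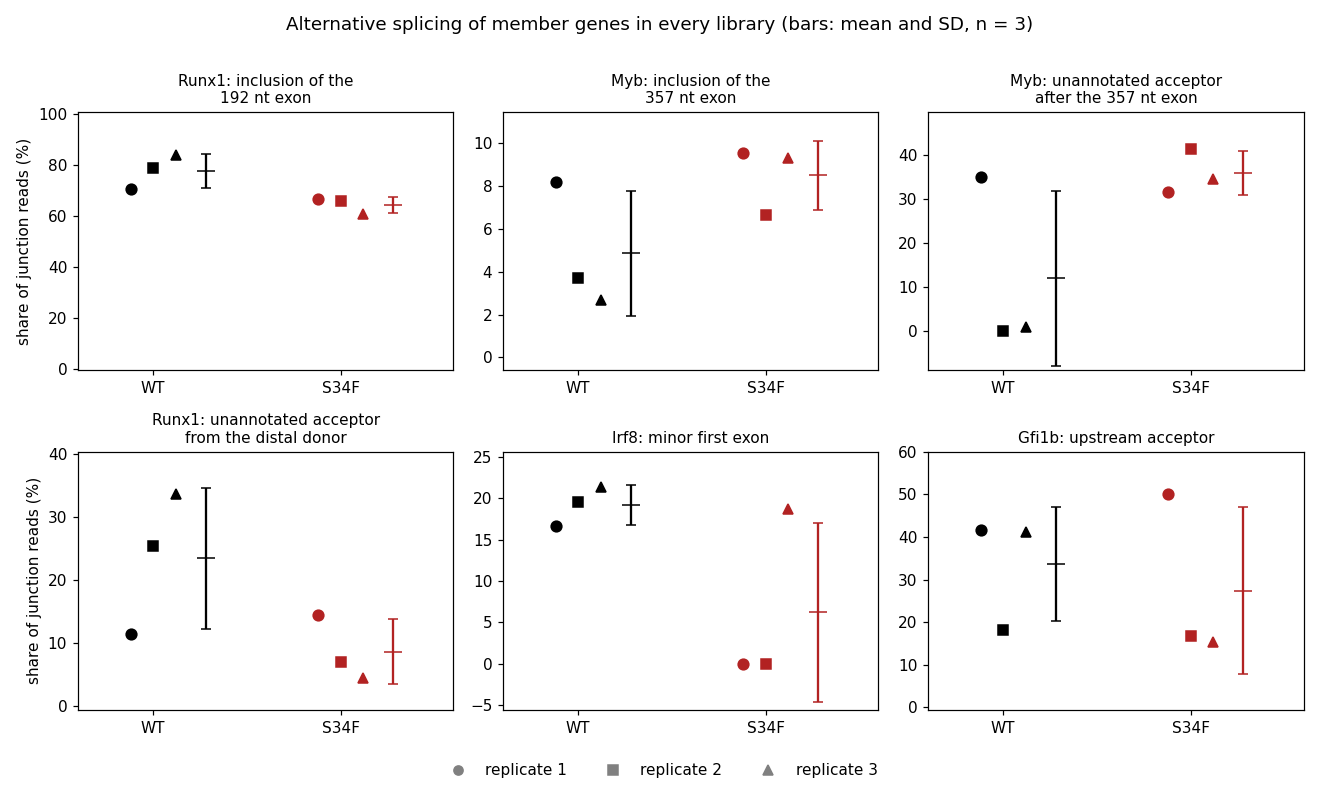
Share of junction reads, in percent, for 6 splicing choices in every library, with the mean and SD of each genotype. Runx1 exon inclusion is the only panel whose genotypes do not overlap (60.7 to 66.7% in S34F, 70.5 to 83.9% in WT), and in both Myb panels WT replicate 1 lies with the S34F libraries.

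First exon use differed between libraries in Irf8. The minor annotated first exon, with its donor at 123263126, supplied 0, 0 and 18.7% of the reads into the acceptor at 123263717 in S34F and 16.6, 19.6 and 21.3% in WT. The share was at 0 in S34F replicates 1 and 2, which also had the lowest Irf8 levels, and S34F replicate 3 lay within the WT range. At 133 and 123 reads the zeros allow up to 2.26 and 2.44%, by counting error only. The edgeR adjusted p was 0.830 and the DESeq2 adjusted p 0.338. Gata2 likewise has a distal first exon, with its donor at 88143994, which supplied 38.5, 23.7 and 47.8% in S34F and 32.6, 31.7 and 20.9% in WT, of only 38 to 144 reads (edgeR adjusted p = 0.923). The proximal Gata2 first exon held 4.41, 5.65 and 4.96% of all junction reads of the gene in S34F and 7.03, 5.69 and 8.79% in WT (edgeR adjusted p = 0.858).

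The Gfi1b acceptors printed above lie 99 nt apart in coding sequence, so the choice keeps the frame and adds or removes part of the protein. The upstream acceptor took 50, 16.7 and 15.4% in S34F and 41.7, 18.2 and 41.2% in WT. Both genotypes held high and low libraries, at 36 to 103 reads each (edgeR adjusted p = 0.943). A coding Gfi1b exon of 121 nt was included in 92.9, 100 and 98.4% in S34F and 92.5, 100 and 95.2% in WT (edgeR adjusted p = 0.979).

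Spi1 has 3 acceptors for the donor at 90937150, of which those at 90939557 and 90939587 are annotated. The one at 90939587 took 90.6, 94.3 and 95.2% in S34F and 92.6, 92.9 and 91.2% in WT (edgeR adjusted p = 0.894). The lowest p in Spi1 was at an unannotated acceptor 4 nt inside a coding exon, a distance that is not a multiple of 3. It is shown with the capitals as before.
Spi1, chr2, exon starts 90955232 and 90955236: catctctcaCAGgCAGcaagaa
The inner site took 0, 3.96 and 2.98% in S34F and 0.142, 0 and 0.302% in WT (edgeR adjusted p = 0.671). S34F replicates 2 and 3 were high and S34F replicate 1 was at 0, where 513 reads allow up to 0.585%. From the other first exon donor, at 90922680, the junction straight to 90939587 took 2.74, 10.3 and 9.55% in S34F and 13.3, 6.54 and 12.7% in WT (edgeR adjusted p = 0.887).

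In Gfi1, 8 donors join the acceptor at 108152906. The main one, at 108154975, supplied 75.6, 66.8 and 70.7% in S34F and 71.5, 73.2 and 74.3% in WT (edgeR adjusted p = 0.980). The lowest p among them was for a GC donor at 108154215 that supplied 0 to 1.92% in S34F and 1.24 to 4.69% in WT (edgeR adjusted p = 0.809). Of the unannotated donors, the one at 108153052 supplied 1.16, 11.0 and 16.3% in S34F and 8.26, 12.4 and 5.03% in WT. The one at 108153268 supplied 8.72, 11.0 and 5.77% against 7.44, 8.27 and 2.95% (edgeR adjusted p = 0.922). In the share test the lowest edgeR adjusted p was 0.868 for Gfi1, 0.917 for Spi1, 0.892 for Gfi1b and 0.885 for Irf8. An unannotated Irf8 acceptor at 123269344 took 0.810 to 1.84% in the 6 libraries (edgeR adjusted p = 0.856). Cebpe has a single deposited junction and entered no test of splicing.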

How the data were processed

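Levels and splicing were compared between 3 S34F and 3 WT libraries. The authors deposited raw read counts per gene and per splice junction, with no normalization, from reads of 100 bases aligned to mm9. Tools named without a role, per the submitters' processing notes, are TopHat2 2.0.8, Bowtie2 2.1.0, DESeq2 1.6.1, HTSeq 0.5.4p1 and Cufflinks 2.1.1. Whether counting used strand is not given in the sources used here. Per the file headers, the tables also hold the authors' ratios, log2 fold changes, p-values, test scores and signal means, and FPKM, which entered no test here.

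Gene counts were tested with edgeR 4.0.16 in R 4.3.3 (TMM, default expression filter, quasi-likelihood, Benjamini-Hochberg over all genes). DESeq2 1.42.0 and, for events, limma 3.58.1 (0.5 added to each count) were alternatives. Events entered edgeR as 2 counts per library with terms for library, form and genotype by form. They needed 20 reads in every library and both forms at 1% (cassettes 2%, 10 to 1000 nt; shares also 60 reads). The fits were tested on simulated data. P-values measure the spread between pools. The members and lists were chosen with earlier results of these data known. Events were named for the lowest p of a gene in a test or a minor form of at least 5%; for junction shares only the first rule was used, a choice made after the files were seen. In each list the 2 genes of lowest p, and further ones chosen after their values were seen, were named. Deposited junction positions are exon ends: after moving 1 base inward, 99.98% of 149533 GT-AG introns carried these bases in the mm9 genome, and 0% as printed. Introns under 30 nt (125 junctions) were left out of the acceptor base counts. All tests were two-sided.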

Additional observations from a re-analysis of the deposited data

How the results depend on the processing

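The count of called members was 0 of 10 by edgeR, DESeq2, RLE scaling, no filter, the replicate block and each fit without 1 library, and 0 events were called in each alternative run. The genes called over the lists beside the members moved from 0 to 7 by DESeq2 and 2 with the replicate block, and ranged from 0 to 12 without 1 library, the highest without WT replicate 1. The cause was not tested. Same-numbered libraries correlated at 0.21, 0.27 and 0.02 in their deviations, and differently numbered ones at -0.29 to 0.08. The main fits did not pair them because the labels name no shared batch. A shared source of same-numbered libraries was not tested. The replicate block, a term for replicate number, gave edgeR adjusted p of 0.474 for Cebpe and 0.414 for Runx1. It turned the sign of Myb (-0.00051) and Gata2 (0.039), and of the Gfi1b donor at 28477369 (-0.30, and -0.042 by DESeq2). Limma turned the Runx1 acceptor at 92825225 (0.43, log2 odds) and the 121 nt Gfi1b exon (-0.13). Leaving out 1 library turned the sign of Cebpb (-0.033 to 0.31), Cebpe (-0.83 to 0.12), Gfi1 (-0.49 to 0.15), Gfi1b (-0.40 to 0.16), Myb (-0.13 to 0.10) and Gata2 (-0.28 to 0.50), none of which was called. It also turned the log2 odds of the Runx1 acceptor at 92606369 (-0.94 to 1.10), the Runx1 acceptor at 92825225 (-1.59 to 0.39), the Spi1 acceptor at 90939557 (-0.27 to 0.15), the 121 nt Gfi1b exon (-0.64 to 1.71), the Gfi1 donor at 108153052 (-0.75 to 0.81), the Gfi1 donor at 108154975 (-0.30 to 0.0095) and the Gfi1b donor at 28477369 (-1.62 to 1.03), likewise not called. The other 461 values of single genes and events under an alternative kept their direction and side of the threshold. With 36 to 144 reads per library, the choice between the Gfi1b acceptors and between the Gata2 first exons cannot show differences of a few points.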

Other observations

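As a description over 6 libraries, which share depth and composition, the gene whose log2 level followed each member most closely was Ly86 for Irf8 (Pearson r = 0.996), Slc1a5 for Spi1 (0.996), Hist2h3c2 for Cebpa (0.997), Gspt2 for Cebpb (0.952) and Ahcyl2 for Cebpe (0.997). For the others it was Mxi1 for Gfi1 (0.995), Zfp36 for Gfi1b (0.990), Lcp1 for Runx1 (0.996), Dcaf7 for Myb (0.982) and Neat1 for Gata2 (0.996). The search ran over the 9165 genes with a mean of at least 10 CPM, apart from the members. With so many genes and only 6 libraries, a high r can be reached by picking alone and is no evidence of a link. Ly86, which is also in the monocyte and dendritic cell list, was at 35.0, 32.7 and 49.8 CPM in S34F and 53.7, 54.3 and 51.0 CPM in WT.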
